A study of Mus musculus with 18 samples.

Results

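The genes described here are 9 mouse genes with at least 1 annotated transcript that holds a run of 11 or more uninterrupted CTG triplets: Mapkap1, Fgd4, Pacsin2, Aasdh, Ralgps1, Pik3r1, Ccdc167, Ppp1r12b and Cdh4. They are 9 of the 46725 genes in the count files. A search of 141767 annotated transcripts of 55450 genes (GENCODE M21, genome build GRCm38) found 28 genes with such a run, and these 9 were listed from them. Of the other 19 genes, 11 were in the count files. All 28 met the same rule on the run, and whether other features of the runs set the 9 genes apart was not tested. All 9 passed the filter on low counts in both muscles, and 6 of the 11 did. Genomic sequence was not used here, so runs inside introns that no annotated transcript retains were not searched.

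The samples were gastrocnemius and quadriceps muscles from 9 FVB mice, all 20 weeks old. The 3 WT mice carried no transgene, and the 3 untreated HSA-LR mice carried a human skeletal actin transgene with an expanded CTG repeat in its 3′ UTR, expressed only in skeletal muscle. The other 3 HSA-LR mice carried the same transgene and were treated with Pip6a-PMO, a morpholino antisense oligomer of CAG7 sequence joined to the cell-penetrating peptide Pip6a. The labels name intravenous injection of Pip6a-PMO or saline, 160 µL a mouse, and the dose of the sequenced mice was not given in the sources used here. Both muscles came from each mouse, which gave 18 libraries of polyA-selected RNA made with a stranded kit. WT mouse 2 was labelled female and all other mice male.

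CUG repeats in RNA fold into hairpins that bind muscleblind (MBNL) splicing factors, and in myotonic dystrophy an expanded repeat holds these proteins in nuclear foci. The antisense CAG7 oligomer pairs with CUG repeats and competes with MBNL for them. Short CTG runs also occur in normal mouse transcripts, where they are read as CUG in the RNA, and the comparisons below ask whether the genes that hold them, or the exon pieces with the run, changed with the transgene or the treatment.

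The 9 genes have unlike functions. Mapkap1 (Sin1) is a subunit of the mTORC2 kinase complex, and Pik3r1 encodes the p85α regulatory subunit of phosphoinositide 3-kinase. Ppp1r12b (MYPT2) is the striated muscle regulatory subunit of myosin phosphatase. Fgd4 (frabin) activates the small GTPase Cdc42, and Ralgps1 activates Ral GTPases. Pacsin2 bends membranes at caveolae and endocytic sites, Cdh4 (R-cadherin) is a calcium-dependent adhesion protein, and Aasdh belongs to the acyl-CoA synthetase family.

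The runs had between 11 and 25 CTG and lay in minor transcripts of most of these genes. Mapkap1 held the longest, with 25 CTG at chr2:34624397-34624471 on the plus strand, in the 3′ UTR of 2 of its 11 transcripts. The run of Ppp1r12b, 12 CTG at chr1:134756719-134756754 on the minus strand, lay in the 3′ UTR of 1 of 10 transcripts. In Fgd4 (21 CTG, chr16:16453871-16453933), Aasdh (18 CTG, chr5:76893119-76893172), Ralgps1 (17 CTG, chr2:33259606-33259656) and Pik3r1 (16 CTG, chr13:101755812-101755859), all on the minus strand, the run lay in transcripts annotated as retaining an intron. The run of Pacsin2 (21 CTG, chr15:83375643-83375705, minus strand) lay in the 3′ UTR of 1 of 11 transcripts. That of Ccdc167 (14 CTG, chr17:29687637-29687678, minus strand) lay in the 3′ UTR of a transcript annotated as a target of nonsense-mediated decay. In Cdh4 (11 CTG, chr2:179444343-179444375, plus strand) it lay in a transcript with no coding frame. Transcripts of these kinds that keep an intron or are degraded are usually rare.

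The ends of the runs in the members that the results turn on are printed here from the GENCODE M21 transcripts, 5′ to 3′ on the sense strand. Capitals mark 7 CTG, the number of triplets that the CAG7 oligomer can pair with, and lower case marks the 9 bases that border the run. The run of Mapkap1 is shown at both ends (chr2:34624388-34624417 and chr2:34624451-34624480). The starts of the others are at chr1:134756734-134756763 for Ppp1r12b, chr16:16453913-16453942 for Fgd4, chr5:76893152-76893181 for Aasdh and chr2:179444334-179444363 for Cdh4.
Mapkap1, start of the run: agccagacgCTGCTGCTGCTGCTGCTGCTG
Mapkap1, end of the run: CTGCTGCTGCTGCTGCTGCTGctatactga
Ppp1r12b, start of the run: ggaaaccggCTGCTGCTGCTGCTGCTGCTG
Fgd4, start of the run: ataaatgatCTGCTGCTGCTGCTGCTGCTG
Aasdh, start of the run: ctgcagatcCTGCTGCTGCTGCTGCTGCTG
Cdh4, start of the run: cttctcctcCTGCTGCTGCTGCTGCTGCTG

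The deposited values were read counts on exon bins. The annotated exons of a gene are divided wherever any exon starts or stops, and the resulting bins are numbered along the chromosome. Under the usual rule for such counts, a fragment that touches several bins is counted in each. Which tool made these counts was not settled. The gene level used here is the sum of its bins, given in CPM, the count scaled to a common library size, after trimmed mean of M values (TMM) normalization. The 18 libraries held 98916844 to 143135976 counts. The treated gastrocnemius of mouse 3 stood apart in coverage, with a log2 ratio of counts in the 5′ to the 3′ part of genes of -1.64 against -1.37 to -1.24 in the other 17 libraries. Both muscles of WT mouse 3, labelled male, had 1.14 and 1.43 CPM of 4 summed Y-linked genes. Both of WT mouse 2, labelled female, had 153 and 188 CPM. These values go against the sex labels of WT mice 2 and 3, which were kept as given. Muscle fiber markers summed to between 121600 and 215500 CPM in every group. Libraries labelled as replicates came from separate mice.

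Most of the located bins with a run held few counts. The bin with the run could be located for 7 of the 9 genes, and for Pacsin2 and Ccdc167 it could not, because their deposited bins differ from the annotation (18 bins against 37 and 16 against 21). In 5 of the 7 genes the bin with the run held 20 or fewer counts over all 18 libraries, 43 counts in all. The bin of Fgd4 held 3 counts, a share of 0.0125% of the gene (95% exact binomial interval 0.00258 to 0.0366), and its density was 0.416% of that of the gene's other bins. The bin of Pik3r1 held 9 counts, 0.0233% of the gene (0.0106 to 0.0442). The bin of Aasdh held 11 counts, 0.0552% of the gene (0.0276 to 0.0988), and that of Ralgps1 held 20 counts, 0.260% of the gene (0.159 to 0.401). The bin of Cdh4 held 0 of 47075 counts, which allows a share of up to 0.00637% (3 counts of the total), and the upper end of its 95% exact interval was 0.00784%. These intervals and limits cover counting error only. In the muscles sequenced here, therefore, the levels of Fgd4, Aasdh, Ralgps1, Pik3r1 and Cdh4 came almost wholly from bins without the run, and no change in the use of their run could be measured at this depth.

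**Figure D1:**
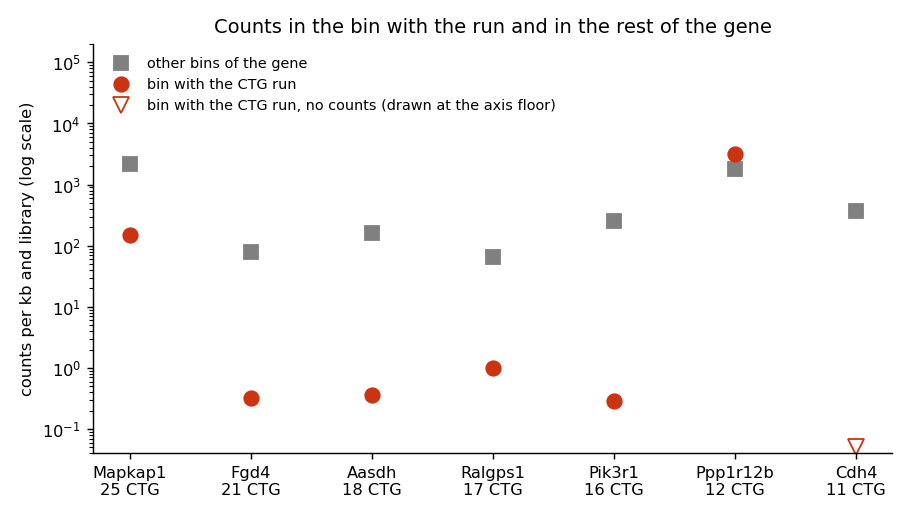
Counts per kilobase and library (vertical axis, log scale) in the bin with the CTG run (red) and in all other bins of the same gene (grey) for the 7 genes whose run could be located, averaged over the 18 libraries. The bin of Ppp1r12b lies above the rest of its gene (178%), that of Mapkap1 lies at 7.0% of it, 4 lie at 0.11% to 1.53%, and Cdh4 had no counts in the bin.

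The bins with the run of Mapkap1 and Ppp1r12b were read in every library. The Mapkap1 bin, number 033, spans 1030 bases (chr2:34623920-34624949) of the extended 3′ UTR of 2 transcripts, and the run takes up its 25 triplets. It held 106 to 231 counts a library and 2.32% of the counts of the gene. The Ppp1r12b bin, number 003, spans 3256 bases (chr1:134755811-134759066) of the 3′ UTR of 1 transcript and held 5282 to 13950 counts a library, 33.1% of the gene and more than any other of its bins. Over the 18 libraries the density was 151 counts per kilobase and library in the Mapkap1 bin against 2150 in the other bins of that gene, and 3170 against 1770 for Ppp1r12b. By density, bin 003 held only rank 22 among the 48 bins of Ppp1r12b, and bin 033 rank 27 among the 34 of Mapkap1.

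The part of Mapkap1 counts in the bin with the run was higher in HSA-LR than in WT muscle, at 1.64 times the WT level in the gastrocnemius and 1.99 times in the quadriceps, and it was lower again in treated mice. In the gastrocnemius, WT mice had 111, 132 and 163 counts in bin 033, or 1.77%, 1.9% and 1.86% of the gene. HSA-LR mice had 194, 186 and 185 counts, or 2.85%, 3.25% and 2.98%, and treated mice had 156, 128 and 125 counts, or 2.06%, 1.95% and 2.26%. Each HSA-LR mouse lay above each WT and each treated mouse, and each treated mouse lay above each WT mouse. In the quadriceps, WT mice had 120, 106 and 115 counts (1.86%, 1.64% and 1.6%). HSA-LR mice had 166, 231 and 229 counts (3.14%, 3.54% and 3.48%), and treated mice had 134, 167 and 146 counts (1.98%, 2.25% and 2.04%). The order of the groups was the same as in the gastrocnemius, again with no overlap.

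The mean share was 1.84% ± 0.0689 (SD, n = 3) in WT, 3.02% ± 0.203 in HSA-LR and 2.09% ± 0.160 in treated gastrocnemius. It was 1.70% ± 0.141, 3.39% ± 0.212 and 2.09% ± 0.141 in the quadriceps. In all 6 comparisons the groups did not overlap, each with P = 0.1 by the two-sided exact permutation test, the smallest P that 3 mice against 3 can give (0.171 after Benjamini-Hochberg adjustment over 12 comparisons of 2 bins). Treated mice were 0.691 times the HSA-LR level in the gastrocnemius and 0.617 times in the quadriceps, and 1.13 and 1.23 times the WT level.

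The bin was next tested against the rest of its gene across all exon bins (edgeR's diffSpliceDGE, adjusted P under 0.1 for a call). Relative to the gene, bin 033 rose in HSA-LR mice by 0.70 on the log2 scale in the gastrocnemius (adjusted P = 0.0925) and by 1.0 in the quadriceps (adjusted P = 0.00965). Of 172719 bins tested in the gastrocnemius 0.819% were called, and of 172858 in the quadriceps 0.284%. Among the 190 and 185 tested bins of the 9 genes, bin 033 was the only one called in either muscle. At the 5′ end of Mapkap1, bins 004, 005 and 006 had -1.16, -1.23 and -0.48 in HSA-LR gastrocnemius, none called, and 0.68, 0.61 and 0.12 in the quadriceps. The gastrocnemius call was lost when any 1 of the 3 WT or 3 HSA-LR mice was left out (with values of the adjusted P from 0.245 to 0.606 over these 6 fits) while the log2 change stayed between 0.66 and 0.75. The quadriceps call was lost only without WT mouse 3 (adjusted P = 0.109).

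With treatment the log2 change of bin 033 against HSA-LR was -0.53 in the gastrocnemius (adjusted P = 0.972) and -0.69 in the quadriceps (adjusted P = 0.594), neither of them a call, although both had an unadjusted P under 0.05. Of all bins, 0.309% and 0.168% were called in these comparisons. In the quadriceps, limma voom with diffSplice did call it (adjusted P = 3.40e-05), and over the 16 alternatives the adjusted P ran from 3.40e-05 to 1.0. Against WT mice, treated mice had log2 values of 0.18 and 0.30 (adjusted P = 1.0 in both), where 0.0654% and 0.0353% of all bins were called.

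The neighbouring bin 032 (chr2:34623565-34623919, 355 bases) is 3′ UTR of the same 2 transcripts and also the last exon of a noncoding one, and it held 6.74% to 7.10% of the gene on average in all 6 groups. Per 100 counts of bin 032, bin 033 had 27 ± 1.11 (SD, n = 3) counts in WT, 43.5 ± 2.06 in HSA-LR and 29.5 ± 0.811 in treated gastrocnemius. In the quadriceps it had 25.3 ± 2.10, 47.9 ± 4.29 and 29.5 ± 0.925. By this ratio, too, the HSA-LR mice lay apart from both other groups (exact permutation P = 0.1 in each comparison). The ratio uses the same counts of bin 033 as the share, so it is no independent support. This ratio was added after the shares had been seen.

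**Figure D2:**
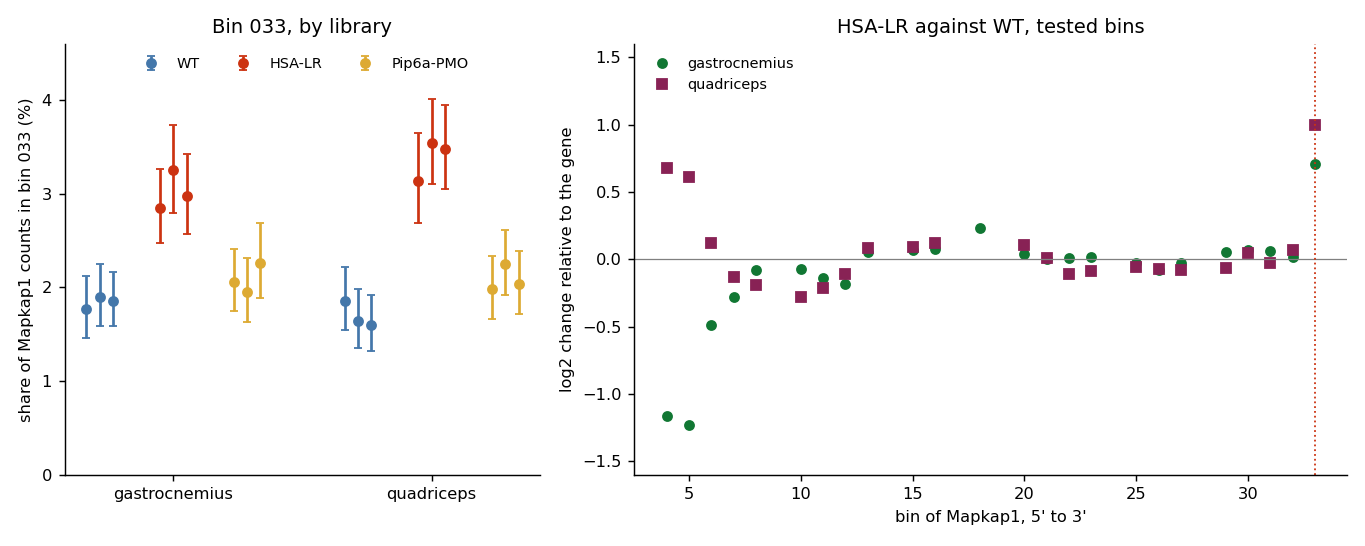
Left, percent of Mapkap1 counts in bin 033, the bin with 25 CTG, in each of the 18 libraries (points) with 95% exact binomial intervals (bars, counting error only); in both muscles the HSA-LR mice (2.85% to 3.54%) lie above all others (1.6% to 2.26%). Right, log2 change of each tested Mapkap1 bin relative to the gene in HSA-LR against WT mice, from the 5′ end to the 3′ end, with a dotted line at bin 033, which shows 0.70 and 1.0; bins 004 and 005 lie on opposite sides of 0 in the muscles.

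The transgene RNA of HSA-LR mice also holds CUG repeats, and how the counts lie within bin 033 was not tested, since the files give bin totals. The 7 located bins with 16 or more CTG other than that of Mapkap1, in members and other genes, held at most 3 counts in any library. Of these, the bin of Gm44146, which also has 25 CTG, held 1 count over all 18 libraries, too few to compare groups. Whether reads from the transgene repeat were counted in bin 033 was not tested, and bin totals cannot show it. The macrophage marker sum also moved with the groups, at 31.7 to 40.3 CPM in WT, 45.6 to 49 in HSA-LR and 24.0 to 32.5 in treated gastrocnemius, and 19.3 to 32, 50.1 to 59.3 and 21.7 to 29.97 in the quadriceps. All 4 macrophage markers were higher at adjusted P under 0.1 in HSA-LR quadriceps and 2 of 4 in the gastrocnemius. In this sum treated mice overlapped WT mice in both muscles. Muscle fiber, smooth muscle and Schwann cell sums also set HSA-LR quadriceps apart from both other groups, on the lower side. The part of these cell types in the change of bin 033 was not tested.

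In Ppp1r12b, the bin with the run was not called in any comparison. Its share was 36.3%, 36.0% and 43.2% in WT gastrocnemius, 31.8%, 31.1% and 30.9% in HSA-LR and 37.7%, 31.8% and 35.3% in treated gastrocnemius. The HSA-LR mice lay below the WT mice (exact permutation P = 0.1), and treated mice overlapped both groups. In the quadriceps the WT mice had 37.9%, 29.0% and 35.5%, the HSA-LR mice 41.7%, 29.7% and 31.1%, and the treated mice between 29.8% and 30.4%, so the groups overlapped. Relative to the gene, the log2 change of bin 003 in HSA-LR against WT mice was -0.31 in the gastrocnemius and -0.03 in the quadriceps (adjusted P = 1.0 in both).

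Other bins of Ppp1r12b moved further than the bin with the run, though none passed the threshold. Bins 008 and 009 together form an alternative exon near the 3′ end (chr1:134765897-134766077) that ends the coding frame in 2 transcripts and is skipped in the transcript with the run. Bin 009 held 1.77%, 1.79% and 1.52% of the gene in WT gastrocnemius, 0.851%, 0.689% and 0.830% in HSA-LR and 1.51%, 2.12% and 1.48% in treated gastrocnemius. In the quadriceps it held 1.68%, 2.40% and 2.04% in WT, 0.536%, 0.879% and 1.03% in HSA-LR and 2.24%, 2.32% and 2.27% in treated mice. The HSA-LR mice were therefore below all WT and treated mice in both muscles. Relative to the gene, the log2 change in HSA-LR mice was -1.09 for bin 009 and -1.18 for bin 008 in the gastrocnemius (adjusted P = 0.172 and 0.106) and -1.27 and -1.31 in the quadriceps (adjusted P = 0.788 and 0.641). With treatment it was 1.15 and 1.23 in the gastrocnemius (adjusted P = 0.233 and 0.151) and 1.40 and 1.42 in the quadriceps (adjusted P = 0.515 and 0.462). Bin 018 (chr1:134803102-134803851, exon of a transcript that retains an intron) had -1.16 in HSA-LR gastrocnemius (adjusted P = 0.126). These bins are described after their values had been seen.

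Along Ppp1r12b, 15 bins 5′ of the run had log2 values of 0.69 to 0.93 relative to the gene in HSA-LR gastrocnemius at an unadjusted P under 0.05, and 3 were lower (bins 008, 009 and 018). In the quadriceps no bin was higher and 2 were lower at that P. Over the 9 genes, 33 of 190 bins (17.4%) had an unadjusted P under 0.05 in HSA-LR against WT gastrocnemius, against 3.89% of all bins tested, and 18 of these 33 were in Ppp1r12b, 7 in Fgd4, 4 in Mapkap1, 3 in Pik3r1 and 1 in Pacsin2. Bins of 1 gene can share fragments and are not independent. In the quadriceps it was 4 of 185 (2.16%) against 1.62%.

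**Figure D3:**
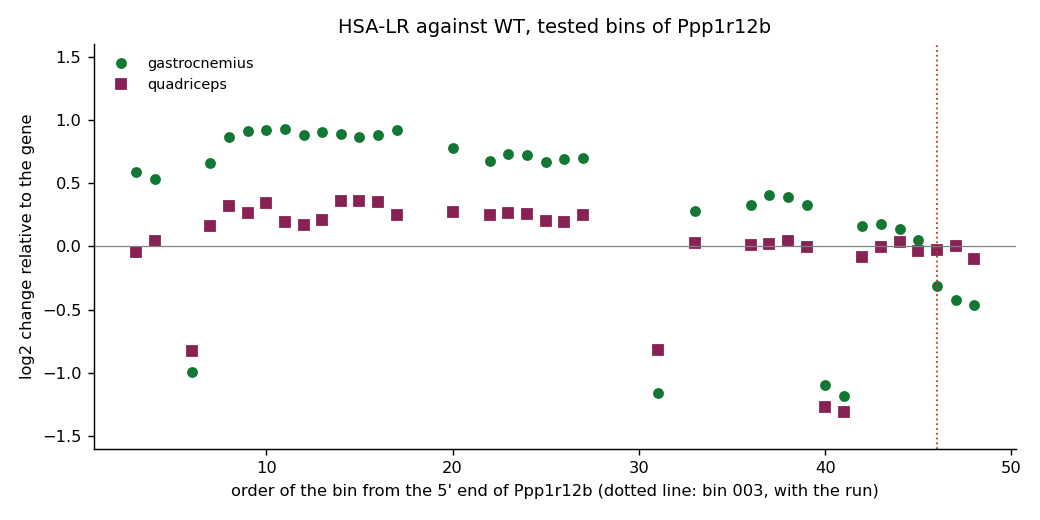
Log2 change of each tested bin of Ppp1r12b relative to the gene in HSA-LR against WT mice (vertical axis), by the order of the bin from the 5′ end (horizontal axis), for the gastrocnemius (circles) and the quadriceps (squares); the dotted line marks bin 003, with the run. Bins near the 5′ end lie near 0.9 in the gastrocnemius only, and bins 009 and 008, left of the dotted line, lie between -1.09 and -1.31 in both muscles.

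The counts on either side of the run were compared where each library had at least 100 on both sides, as in Fgd4, Aasdh and Ppp1r12b. The 3′ part made up 87.2% ± 1.35 (SD, n = 3) of Fgd4 in WT gastrocnemius, 78.4% ± 0.0896 in HSA-LR and 84.6% ± 2.49 in treated mice. For Aasdh it was 72.8% ± 2.51, 67.6% ± 1.69 and 74.6% ± 5.12, and for Ppp1r12b 34.5% ± 8.05, 22.6% ± 1.13 and 32.2% ± 8.19. In all 3 genes the HSA-LR gastrocnemius lay below WT without overlap (exact permutation P = 0.1 each, 0.36 after adjustment over 18 comparisons), and in the quadriceps none of the 3 did. Among 3936 genes divided at the middle of their bins, with the same minimum of 100 counts in each part, 18.5% had a lower 3′ share without overlap in HSA-LR gastrocnemius and 8.08% in the quadriceps. The whole library moved the same way: the log2 ratio of 5′ to 3′ coverage over 4098 genes was -1.30 in all 3 HSA-LR gastrocnemius libraries and -1.37, -1.31 and -1.35 in WT. The part of coverage in these 3 shifts was not tested.

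The levels of the genes were tested next. Per kilobase of exon, known for the 7 genes whose number of bins matched the annotation and so not for Pacsin2 and Ccdc167, Ppp1r12b was the highest of the 7 over the 18 libraries (median 17 CPM per kilobase, range 10.2 to 25.5), followed by Mapkap1 (13.8, 10.8 to 15.4). Cdh4 (2.10, 1.16 to 6.59), Pik3r1 (1.66, 1.17 to 2.29) and Aasdh (1.08, 0.720 to 1.27) followed with overlapping ranges, and Fgd4 (0.586, 0.342 to 0.857) and Ralgps1 (0.444, 0.300 to 0.583) were lowest, also overlapping. In bulk muscle, fewer cells of a type and less RNA per cell cannot be told apart.

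Genes were tested with the quasi-likelihood method of edgeR and Benjamini-Hochberg adjustment over all genes tested, with an adjusted P under 0.1 as a call. By this test, HSA-LR against WT gastrocnemius called 3 of the 9 genes, Ppp1r12b higher and Aasdh and Cdh4 lower, where 15.5% of 15625 genes were called. In the quadriceps 2 of 9 were called, Aasdh and Cdh4, both lower, against 20.3% of 15574 genes. Treated against HSA-LR mice called Aasdh alone, higher, in the gastrocnemius (10% of all genes) and Aasdh and Mapkap1, both higher, in the quadriceps (13.8%). Treated against WT mice called Cdh4 alone, lower, in the gastrocnemius (1.04%) and none in the quadriceps (1.41%), where 2 had an unadjusted P under 0.05 (Cdh4 and Ppp1r12b) and DESeq2's Wald test called 1 (Cdh4). The 3 comparisons share mice with each other. Counts this small are no result about the 9 genes as a set, and the genes are given one by one.

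Cdh4, the gene with the shortest run, had the largest change of the 9. It stood at 45.0, 34.0 and 26.7 CPM in WT gastrocnemius, 11.6, 13.5 and 8.41 in HSA-LR and 10.1, 15.6 and 17.1 in treated gastrocnemius. In the quadriceps it stood at 40.9, 47.8 and 29.3 CPM in WT, 15, 11.9 and 8.97 in HSA-LR and 14.3, 10.9 and 25.2 in treated mice. Every HSA-LR and every treated mouse lay below every WT mouse in both muscles, and treated and HSA-LR mice overlapped. Cdh4 fell by 1.67 on the log2 scale in HSA-LR gastrocnemius (SE 0.256, adjusted P = 0.00444) and by 1.72 in the quadriceps (SE 0.320, adjusted P = 0.00947), and kept these calls in all 20 alternatives of each muscle. Treated against HSA-LR mice had log2 values of 0.36 and 0.50 (adjusted P = 0.442 and 0.343). Treated against WT gastrocnemius had -1.31 (adjusted P = 0.0745), a call that 9 of 20 alternatives lost (adjusted P 8.43e-05 to 0.196; without WT mice 1 and 2 in turn 0.183 and 0.188, without HSA-LR mice 1 and 2 in turn 0.128 and 0.105, without treated mice 1 and 2 in turn 0.163 and 0.179), and the quadriceps had -1.22 (adjusted P = 0.158; 0.0566 without treated mouse 3 and 0.00431 to 0.678 over 20 alternatives).

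The bin with the run held none of these counts, so the fall was measured wholly in other bins. The 2 bins of Cdh4 on the 5′ side of the run held 4 counts and the 24 on the 3′ side 47071, and the largest bin, 027 in the 3′ UTR (chr2:179896150-179899373), held 37.8% of the gene. No bin of Cdh4 changed relative to the others at an unadjusted P under 0.05 in HSA-LR against WT mice (17 tested in each muscle). Markers of other cell types moved in both directions in HSA-LR mice. Macrophage markers were called higher (2 of 4 in the gastrocnemius and 4 of 4 in the quadriceps), and 0 of 4 adipocyte markers were called in either muscle. In the quadriceps, 1 of 2 fibroblast markers was called higher and 3 of 4 endothelium markers lower. Those of smooth muscle and Schwann cells were lower. Smooth muscle markers summed to 174 to 191 CPM in WT, 139 to 154 in HSA-LR and 135 to 173 in treated gastrocnemius, and to 120 to 163, 84.7 to 107 and 109 to 129 in the quadriceps, with 2 and 3 of 4 markers called lower in HSA-LR. Schwann cell markers summed to 77.7 to 92.8, 59.2 to 72.4 and 52.8 to 111 CPM in the gastrocnemius and to 57.0 to 73.9, 25.2 to 38.4 and 39.1 to 65.5 in the quadriceps, with 0 and 4 of 4 called lower. Of the Schwann cell markers, 3 of 4 were called higher in treated than in HSA-LR quadriceps. Cdh4 had a mean of 16.8 CPM in treated and 11.9 CPM in HSA-LR quadriceps and was not called. The part of these cell types in the level of Cdh4 was not tested. Over the 18 libraries, the genes whose log2 CPM followed Cdh4 most closely were Vasp (Pearson's r = 0.967) and Akirin1 (r = 0.944), a description over libraries that share the same 3 groups.

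Aasdh fell in HSA-LR mice and rose with treatment in both muscles. In the gastrocnemius, WT mice had 9.82, 9.91 and 10.7 CPM, HSA-LR mice 7.28, 6.22 and 7.52 and treated mice 9.09, 9.07 and 9.22. In the quadriceps, WT mice had 10.3, 11 and 10.9 CPM, HSA-LR mice 7.15, 7.24 and 7.59 and treated mice 9.91, 9.47 and 10.8. HSA-LR mice were below all others in both muscles, and treated mice lay below WT mice in the gastrocnemius and overlapped them in the quadriceps. The log2 fold change in HSA-LR mice was -0.55 in both muscles (SE 0.0987 and 0.0894, adjusted P = 0.00943 and 0.00526). With treatment it was 0.39 (adjusted P = 0.0566) and 0.46 (adjusted P = 0.0209), and treated mice differed from WT by -0.16 and -0.09 (adjusted P = 0.632 and 0.724). The gastrocnemius call of treatment was lost in 6 of 20 alternatives (adjusted P 0.00510 to 0.189), 4 of which left out HSA-LR mouse 1 (0.146), HSA-LR mouse 2 (0.189), treated mouse 1 (0.102) or treated mouse 2 (0.113). Measured by its largest bin alone, Aasdh kept the call in HSA-LR gastrocnemius (adjusted P = 0.0908) and lost it in the quadriceps (adjusted P = 0.222; 4.08e-07 to 0.222 over the 20 alternatives). The quadriceps call of treatment was kept in 18 of 20 alternatives (adjusted P 7.66e-05 to 0.189). It was lost with the largest bin (0.189) and with coverage as a covariate (0.135). Dcun1d2 (r = 0.962) and Cdnf (r = 0.961) followed Aasdh most closely over the 18 libraries.

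**Figure D4:**
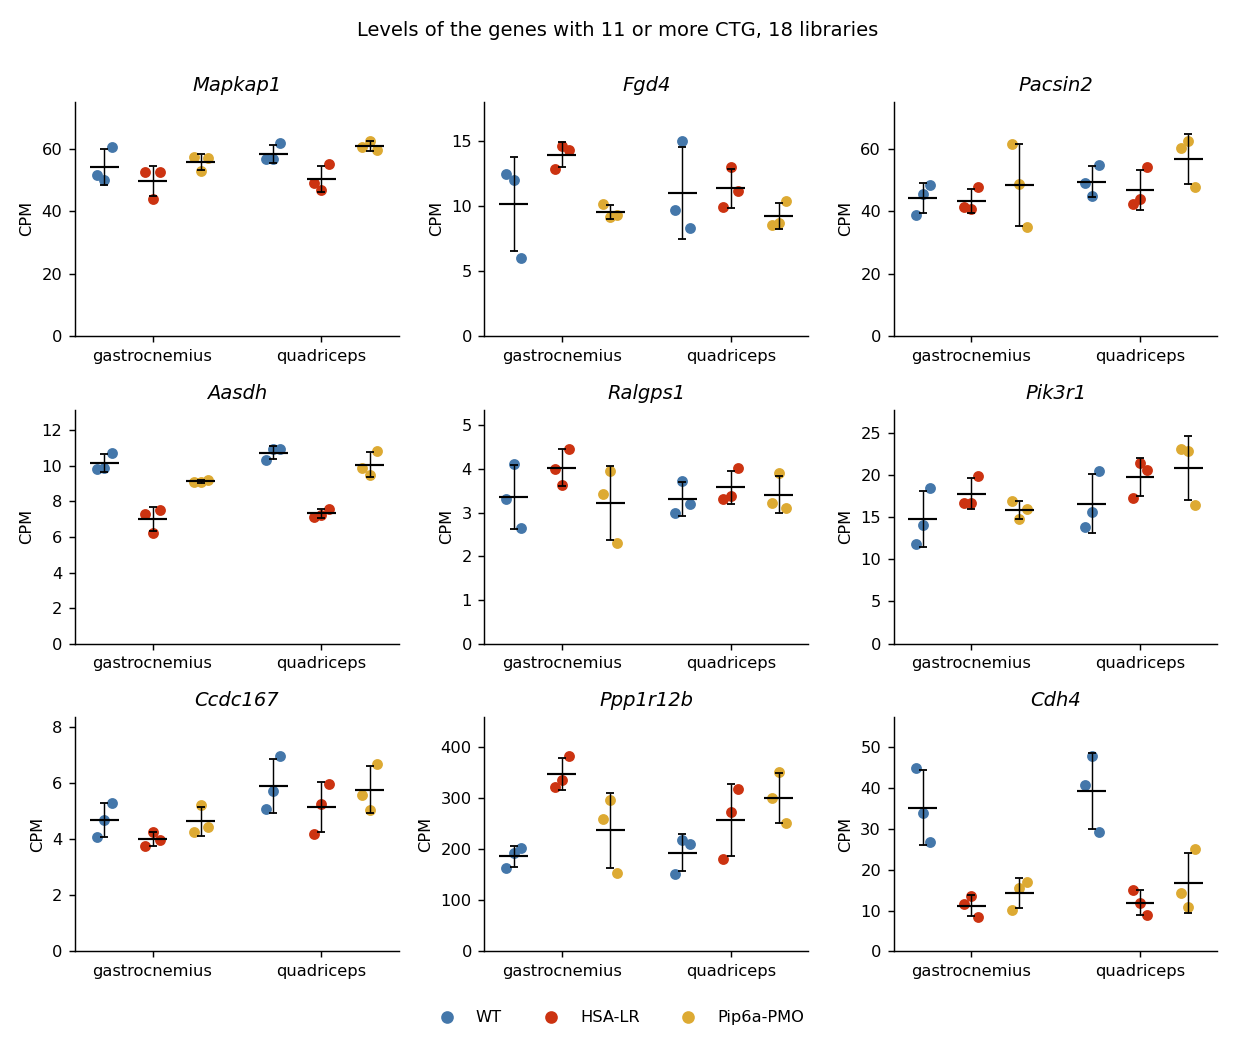
Level of the 9 genes in CPM (vertical axes from 0) in each library, by muscle and group; points are mice, black lines means and bars ± 1 SD (n = 3). Cdh4 is low in HSA-LR and treated mice of both muscles, Aasdh is low only in HSA-LR mice (6.22 to 7.59 CPM), and Ppp1r12b is high in HSA-LR gastrocnemius (322 to 382 CPM).

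Ppp1r12b rose in HSA-LR gastrocnemius, from 163, 192 and 202 CPM in WT mice to 322, 335 and 382 CPM, with 259, 297 and 154 CPM in treated mice. The log2 fold change was 0.89 (SE 0.210, adjusted P = 0.0284), and it was 0.62 with the largest bin alone, which is the bin with the run (adjusted P = 0.137; 0.000727 to 0.137 over 20 alternatives). Treated against HSA-LR gastrocnemius had -0.54 (adjusted P = 0.169). Over the 20 alternatives that value ran from -0.74 to -0.25, the latter with coverage as a covariate, with -0.32 without treated mouse 3, and DESeq2's Wald test alone called it (adjusted P = 0.0946; 0.0946 to 0.342 over the alternatives). The lowest of the treated values belonged to mouse 3, the library that stood apart in coverage, and without it treated against WT gastrocnemius had 0.58 (adjusted P = 0.0981, against 0.616 with it; 0.0760 to 0.855 over 20 alternatives). In the quadriceps, the WT mice had 152, 217 and 210 CPM, the HSA-LR mice 180, 273 and 318 and the treated mice 299, 350 and 251. There HSA-LR mice overlapped both other groups, while all treated mice lay above all WT mice. The log2 values were 0.42 in HSA-LR mice (adjusted P = 0.265; 0.0965 without HSA-LR mouse 1 and 0.0965 to 0.567 over 20 alternatives), 0.23 with treatment (adjusted P = 0.547) and 0.64 between treated and WT mice (adjusted P = 0.290). Fam126a (r = 0.949) and Emsy (r = 0.937) followed Ppp1r12b most closely.

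Mapkap1 as a whole changed little. Its mean level was 54.0 CPM in WT, 49.6 in HSA-LR and 55.7 in treated gastrocnemius and 58.3, 50.3 and 60.8 in the quadriceps. The log2 fold change in HSA-LR mice was -0.13 (adjusted P = 0.470) and -0.21 (adjusted P = 0.132), so the gene sum and the bin with the run had opposite signs. With treatment it was 0.18 in the gastrocnemius (adjusted P = 0.351) and 0.28 in the quadriceps (adjusted P = 0.0791), the latter a call that 9 of 20 alternatives lost (adjusted P 0.0274 to 0.256), 5 of which left out HSA-LR mouse 1 (0.221), HSA-LR mouse 2 (0.222), treated mouse 1 (0.185), treated mouse 2 (0.189) or treated mouse 3 (0.120). In 3 of 20 alternatives the HSA-LR quadriceps was called lower than WT, which were the fit without HSA-LR mouse 3 (adjusted P = 0.0560), DESeq2's Wald test (0.0914) and the sum without bins that hold 7 or more CTG (0.0968), and the adjusted P ran from 0.0560 to 0.511.

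The other 5 genes were not called in any comparison, though 4 of them were in 1 or 2 of the 20 alternatives of a comparison. Fgd4 had 12.5, 12 and 5.98 CPM in WT gastrocnemius, 12.9, 14.7 and 14.3 in HSA-LR and 10.2, 9.14 and 9.27 in treated mice, so HSA-LR mice lay above both other groups. Its log2 values were 0.45 in HSA-LR mice (adjusted P = 0.272) and -0.54 with treatment (adjusted P = 0.212; 0.0147 without WT mouse 3, 0.0303 in a fit of the 2 groups alone, 0.0147 to 0.407 over 20 alternatives). Of the Fgd4 counts, 70.0% lay in bin 001 (chr16:16416917-16422562), a 3′ UTR bin of 5646 bases. That bin held 75.4% to 78.9% of the gene in WT, 61.6% to 64.2% in HSA-LR and 71.0% to 76.5% in treated gastrocnemius. Pik3r1 had log2 values of 0.25 in HSA-LR mice of both muscles (adjusted P = 0.352 and 0.417; 0.0684 in the gastrocnemius without WT mouse 3, 0.0684 to 0.864 over 20 alternatives). Ralgps1 had 0.25 and 0.12 (adjusted P = 0.530 and 0.676), Pacsin2 -0.04 and -0.08 (adjusted P = 0.914 and 0.779), and Ccdc167 -0.24 and -0.20 (adjusted P = 0.311 and 0.538). Over all 18 libraries Pacsin2 ranged from 35.0 to 62.5 CPM, Pik3r1 from 11.8 to 23.1, Ralgps1 from 2.30 to 4.47 and Ccdc167 from 3.76 to 6.94. With treatment Pacsin2 had 0.28 in the quadriceps (adjusted P = 0.231; 0.0990 without HSA-LR mouse 3, 0.0990 to 0.533 over 20 alternatives). Ccdc167 had 0.17 there (adjusted P = 0.586), and its largest bin alone 0.54 (adjusted P = 0.0677; 0.0677 to 0.923 over 20 alternatives). A P that misses the threshold does not show that the groups were alike. Pacsin2 bin 001, whose place could not be matched to the annotation, held 189 counts in all and had log2 values relative to the gene of 1.31 and 1.79 in HSA-LR mice (adjusted P = 1.0 and 0.318).

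**Figure D5:**
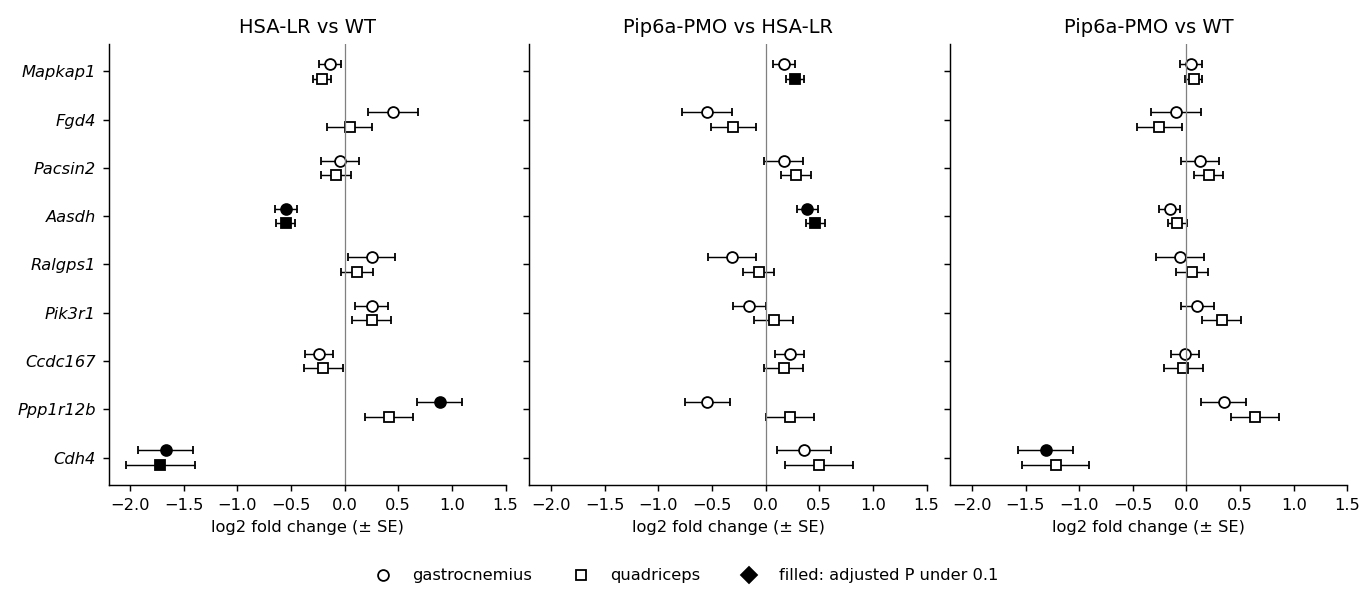
Log2 fold change ± SE of the 9 genes in the 3 comparisons (panels), for the gastrocnemius (circles) and the quadriceps (squares), from edgeR's quasi-likelihood fit; filled symbols have an adjusted P under 0.1. Cdh4 lies at -1.67 and -1.72 in HSA-LR against WT mice, and Aasdh lies at -0.55 in both muscles and on the other side of 0 with treatment.

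In CPM, the groups of HSA-LR and WT mice did not overlap for 4 of the 9 genes in the gastrocnemius, where 36.2% of all genes did not overlap, and for 3 of 9 in the quadriceps (33.2%). Treated and HSA-LR mice did not overlap for 4 (29.3%) and 2 (31.9%), and treated and WT mice for 2 (14.3%) and 2 (18.3%). A fit of all 18 libraries called no member for a difference in effect between the muscles. In that fit edgeR called 0 of 16167 genes in either comparison, so a missing call does not show equal effects. Ppp1r12b had the only unadjusted P under 0.05 among the members, with a treatment effect 0.77 lower on the log2 scale in the gastrocnemius than in the quadriceps (adjusted P = 0.630), and DESeq2 was not run for it. Between the muscles of WT mice 0 of the 9 genes were called, where 0.297% of genes were, and none had an unadjusted P under 0.05.

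Genes with runs near the threshold and genes with related functions were described beside the members. Of the 6 tested non-members with 11 or more CTG, 0 were called in HSA-LR against WT mice in either muscle by edgeR (0 and 1 of them with an unadjusted P under 0.05). With treatment, Armcx6 was lower in the gastrocnemius (log2 -0.67, adjusted P = 0.0607) and Pdlim2 in the quadriceps (-0.51, adjusted P = 0.0848). Of the genes just outside the rule, with a longest run of 10 CTG, Mctp1 and Pter were called nowhere, and Tnfrsf22 was higher in HSA-LR (log2 0.87, adjusted P = 0.0141) and treated (0.87, adjusted P = 0.0788) quadriceps than in WT. Of 35 tested genes whose longest run was 7 to 10 CTG, 6 were called in HSA-LR gastrocnemius (17.1%) and 9 in the quadriceps (25.7%), beside the 15.5% and 20.3% of all genes. Their median log2 fold change was -0.05 and 0.03, that of the 9 members -0.04 and -0.08, and that of all genes -0.01 and 0.01.

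Among 18 tested relatives and partners of the members, 4 were called in HSA-LR mice in each muscle (22.2%, beside 15.5% and 20.3% of all genes). Ppp1r12c, another myosin phosphatase subunit, was lower in both muscles (log2 -0.32 and -0.39, adjusted P = 0.0267 and 0.0264), and Pacsin3, the muscle member of its family, was higher in both (0.25 and 0.34, adjusted P = 0.0889 and 0.0642). Fgd6 was higher in HSA-LR gastrocnemius (0.49, adjusted P = 0.0888) and lower with treatment (-0.53, adjusted P = 0.0964). Fgd2 was higher in HSA-LR quadriceps (1.27, adjusted P = 0.00537) and lower with treatment (-0.78, adjusted P = 0.0546). Of the mTORC2 partners of Mapkap1, Prr5 was lower in HSA-LR gastrocnemius (-0.67, adjusted P = 0.0653) and Rictor in HSA-LR quadriceps (-0.59, adjusted P = 0.0762), while Mtor and Mlst8 were called nowhere. Ralgps2 was lower with treatment in the gastrocnemius (-0.55, adjusted P = 0.0926).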

How the data were processed

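The authors deposited raw counts per exon bin and library (DEXSeq-style output, nothing pooled), and the submitters' processing notes name CASAVA, HISAT, featureCounts 1.5.0 and GRCm38. Entries that name no gene (2.82% to 4.14% of a library) were left out, and each gene's bins were summed. Of 46725 genes, 46520 had a symbol in GENCODE M21 and 41124 had the same number of bins there. Only counts of genes with a matching number of bins were placed on the genome. The place of each bin was taken from the annotation, and no further check of the match was made.

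Genes that passed edgeR's filterByExpr (minimum count 10, total 15) were scaled with TMM factors. Each muscle's 9 libraries shared a glmQLFit model, tested by glmQLFTest (R 4.3.3, edgeR 4.0.16, limma 3.58.1, DESeq2 1.42.0). Bins were tested against their gene with diffSpliceDGE, and its coefficients were converted to log2. A call was an adjusted P under 0.1 after Benjamini-Hochberg adjustment over all genes or bins. Single values were compared by exact permutation tests. The scripts that fit these models were tested on simulated data. With 3 mice a group, depth limits only the bins with few counts.

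All 9 members are named, with genes whose longest run is 10 CTG, relatives called in a comparison and the 2 genes most alike to each member called in HSA-LR against WT mice. The members and lists were chosen with earlier results of these data known. Marker lists covered muscle and slow fibers, adipocytes, endothelium, smooth muscle, Schwann cells, fibroblasts and macrophages. Adipocyte and slow fiber markers had 0 of 4 called in HSA-LR against WT mice in either muscle, endothelium 3 of 4 lower and fibroblasts 1 of 2 higher in the quadriceps, and muscle fiber 1 of 6 higher in the gastrocnemius and 3 of 6 lower in the quadriceps. The 2 muscles of a mouse share its number (median r of their deviations 0.215, 0.0645 to 0.511 over 9 pairs). Within a muscle the numbers did not pair the mice. Alternatives covered other normalizations, filters and tests, the largest bin of a gene, bins without runs, coverage as a covariate, blocks, fits of 2 groups and each mouse left out.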

Additional observations from a re-analysis of the deposited data

How the results depend on the processing

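Of 1575 recomputed values of single genes or bins, 1460 kept their direction and side of the threshold, 36 lost a call, 15 gained one and 64 had the opposite sign. None of the 64 was called under either setting (smallest adjusted P 0.511, and no value above 0.282 in size). Among the values given above, those were Pik3r1 in HSA-LR gastrocnemius (-0.077) and Aasdh in treated against WT quadriceps (0.039) with the largest bin, and, with coverage as a covariate, Ppp1r12b in treated against HSA-LR quadriceps (-0.12) and its bin 003 in HSA-LR quadriceps (0.0044). With single mice left out, Pacsin2 in HSA-LR mice ranged from -0.13 to 0.024 in the gastrocnemius and from -0.20 to 0.0041 in the quadriceps, and Ppp1r12b bin 003 in HSA-LR quadriceps from -0.15 to 0.050. Replacing a gene's sum by its largest bin changed the number of members called to 0 in treated gastrocnemius against HSA-LR and against WT. It changed the number to 1 in HSA-LR against WT quadriceps and to 1 in treated against HSA-LR quadriceps. The latter call was Ccdc167 (edgeR, adjusted P = 0.0677), while Aasdh (0.189) and Mapkap1 (0.146) lost their calls there. The largest bin also lost Ppp1r12b in HSA-LR against WT gastrocnemius (edgeR, adjusted P = 0.137). In HSA-LR against WT quadriceps, Mapkap1 was added by DESeq2's Wald test (adjusted P = 0.0914). The edgeR test of sums without bins that hold 7 or more CTG added it too (adjusted P = 0.0968). In treated against HSA-LR gastrocnemius, DESeq2's Wald test and the fit of 2 groups gave 2 and a filter of at least 1 count gave 0. In treated against WT gastrocnemius, coverage as a covariate gave 2 and the fit of 2 groups 0. In treated against HSA-LR quadriceps, upper-quartile normalization and a filter of at least 1 count gave 1 and coverage as a covariate 0. DESeq2's Wald test gave 1 in treated against WT quadriceps, and limma voom called 1 bin with a run in treated against HSA-LR quadriceps. The cause of these changes was not tested.

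When single mice were left out, the members called ranged from 3 to 4, 0 to 2 and 0 to 2 in the gastrocnemius (HSA-LR against WT, treated against HSA-LR, treated against WT) and from 2 to 3, 1 to 3 and 0 to 1 in the quadriceps. The bins with a run called ranged from 0 to 1 in HSA-LR against WT mice of each muscle and were 0 to 0 elsewhere. Of the 2 bins with a run, those whose shares did not overlap ranged from 2 to 2, 1 to 2 and 1 to 2 in the gastrocnemius and 1 to 1, 1 to 2 and 1 to 2 in the quadriceps. Of the 3 genes compared by 3′ share the ranges were 3 to 3, 2 to 3 and 0 to 1, and 0 to 1, 0 to 2 and 0 to 2. No member was called for a difference in effect between muscles in any of these fits (0 to 0).

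Within a muscle, deviations of mice with the same number had a median correlation of -0.0647 (gastrocnemius, 9 pairs) and 0.0577 (quadriceps), so the numbers are no pairing. With the number as a replicate block, the bins with a run called in HSA-LR against WT gastrocnemius went to 0 (Mapkap1 bin 033, log2 0.71, adjusted P = 0.121) and the members called in treated against WT gastrocnemius to 0 (Cdh4, adjusted P = 0.196). The block, and the mouse as a block in the test between muscles, changed the count of no other result.
Pacsin2 bin 001 and the ratio of Mapkap1 bin 033 to bin 032 were looked at after the data had been seen. Depth limits the 5 bins with a run that held 43 counts in all, where no change could be measured.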

Other observations

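Of 52 located bins with 7 or more CTG in genes outside the list, 40 held counts and 14 were tested, and none of these had an unadjusted P under 0.05 in HSA-LR against WT mice in either muscle (edgeR's diffSpliceDGE). A single bin of these was called in any comparison, in Cab39, which encodes a scaffold of the LKB1 kinase complex, and it is named here after its values had been seen. The bin (005, 117 bases) holds exactly 7 CTG at chr1:85795367-85795387 in the 5′ UTR of 1 of 5 transcripts. The start of its run (chr1:85795358-85795387, plus strand, 5′ to 3′, with the 7 CTG in capitals) is printed here from GENCODE M21.
Cab39, start of the run: aagatctagCTGCTGCTGCTGCTGCTGCTG
The bin held 49, 45 and 56 counts in WT, 42, 46 and 49 in HSA-LR and 18, 10 and 5 in treated gastrocnemius. In the quadriceps it held 21, 29 and 34 counts in WT, 28, 39 and 40 in HSA-LR and 17, 11 and 9 in treated mice. As a share of the gene, treated mice had 0.0513% ± 0.0152 (SD, n = 3) and 0.0591% ± 0.0232, against 0.272% ± 0.0218 and 0.233% ± 0.0119 in HSA-LR and 0.223% ± 0.0225 and 0.155% ± 0.0264 in WT mice. Relative to the gene, the bin fell with treatment by 2.29 on the log2 scale in the gastrocnemius (adjusted P = 0.00101) and by 2.0 in the quadriceps (adjusted P = 0.00131). Against WT mice the log2 values were -2.01 (adjusted P = 0.0264) and -1.42 (adjusted P = 0.775).

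Of the tested genes with 7 or more CAG and no run of 7 CTG, 21 of 104 (20.2%) were called in HSA-LR against WT gastrocnemius, 18 of them higher, where 15.5% of all genes were called, 1343 of 2427 higher. In the quadriceps 22 of 103 (21.4%) were called, 16 higher, beside 20.3% of all genes, 1719 of 3169 higher. With treatment 12 were called in the gastrocnemius, all 12 lower, and 14 in the quadriceps, 7 of them lower, at shares of 11.5% and 13.6% beside 10% and 13.8% of all genes, of which 864 of 1566 and 1124 of 2143 were lower. The genes were grouped by the sequence of their annotated transcripts alone.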
